A study of Mus musculus with 27 samples.

Results

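The CCAAT/enhancer-binding proteins (C/EBPs) were followed through 27 RNA-seq libraries of C2C12 cells, a mouse myoblast line. The 4 genes described are Cebpa, Cebpb, Cebpd and Cebpg, taken by symbol from the 24825 genes in the deposited tables. Cells carried a control, full-length NFIA (nuclear factor I-A, a transcription factor of brown adipocytes) or the Δpro#3 mutant, which lacks the C-terminal stretch of a proline-rich domain, the constructs being delivered by retrovirus with a FLAG tag. Each of the 3 kinds of cell was sampled at day 0, at day 7 of adipocyte differentiation, and at day 7 with 10 µM forskolin for 4 h, which raises cyclic AMP, with 3 replicates in each of the 9 groups. All cells taken to day 7 received the same adipogenic medium with isobutylmethylxanthine, indomethacin, dexamethasone, insulin, T3 and rosiglitazone, and then insulin, T3 and rosiglitazone alone. Nothing in the sources used here says whether replicates were separate infections or cultures, so p-values measure the spread between these libraries. NFIA came from a viral vector and not from its own gene, in a line committed to muscle.

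The C/EBPs are basic leucine-zipper factors that bind DNA as dimers with one another. In the textbook order of adipogenesis, C/EBPβ and C/EBPδ respond early to glucocorticoid and cyclic AMP and precede C/EBPα and PPARγ, which then maintain each other and the genes of the mature adipocyte. C/EBPγ lacks an activation domain and acts mainly as a dimer partner, among others of ATF4 in the amino acid response. In muscle precursors C/EBPβ is known as a brake on myogenic differentiation.

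In NCBIM37, the mm9 assembly, Cebpa lay on chromosome 7 from 35904312 to 35906945 on the plus strand with 1 exon, and Cebpb on chromosome 2 from 167514415 to 167515918 on the plus strand with 1 exon. Cebpd lay on chromosome 16 from 15887379 to 15888559 on the plus strand, and Cebpg on chromosome 7 from 35831441 to 35841522 on the minus strand with 2 exons. Cebpg and Cebpa are neighbours, with 62789 bases between them. Promoters of 3 of the 4 genes, all but Cebpd, were found in RefSeq (GRCm38.p6, 250 bases before to 50 bases after the start). All 3 are shown. Capitals mark matches on either strand to the cyclic AMP response element (CRE) half-site TGACG, to the C/EBP site TTGCGNNA or to the CCAAT box.
Cebpa: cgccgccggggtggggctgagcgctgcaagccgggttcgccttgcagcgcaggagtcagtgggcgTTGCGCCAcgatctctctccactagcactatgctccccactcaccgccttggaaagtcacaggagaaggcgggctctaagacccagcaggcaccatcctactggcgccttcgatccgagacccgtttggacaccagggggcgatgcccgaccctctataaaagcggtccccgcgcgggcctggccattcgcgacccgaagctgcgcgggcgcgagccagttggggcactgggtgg
Cebpb: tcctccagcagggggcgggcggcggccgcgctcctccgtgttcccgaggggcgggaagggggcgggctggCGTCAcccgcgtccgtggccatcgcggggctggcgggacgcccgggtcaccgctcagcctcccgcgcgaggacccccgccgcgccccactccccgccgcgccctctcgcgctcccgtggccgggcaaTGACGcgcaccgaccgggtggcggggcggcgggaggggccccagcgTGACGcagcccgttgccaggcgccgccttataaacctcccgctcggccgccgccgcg
Cebpg: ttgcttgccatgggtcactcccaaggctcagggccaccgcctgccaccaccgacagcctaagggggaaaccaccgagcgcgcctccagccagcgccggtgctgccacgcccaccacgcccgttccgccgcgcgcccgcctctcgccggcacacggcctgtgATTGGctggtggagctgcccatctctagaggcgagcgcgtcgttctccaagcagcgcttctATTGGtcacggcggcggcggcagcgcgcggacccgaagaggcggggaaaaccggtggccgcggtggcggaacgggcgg
The windows are chr7:35119043-35119342 on the plus strand for Cebpa, chr2:167688665-167688964 on the plus strand for Cebpb and chr7:35056517-35056816 on the minus strand for Cebpg, and each sequence is written 5′ to 3′ along its gene. Cebpb held 3 CRE half-sites, starting at bases -180, -53 and -7 from the start, a motif found in 20.8% of 32851 promoters of this length. Cebpa held 1 C/EBP site, TTGCGCCA at -185, which 3.51% of promoters held. Cebpg held CCAAT boxes at -89 and -28 (37.4% of promoters) and an NFI half-site, TTGGC, at -88 (46.7%), which overlaps the first of them. No full CRE (TGACGTCA, 1.79% of promoters) and no NFI palindrome (TTGGC and GCCAA with 5 bases between them, 0.0365%) lay in these 3 windows.

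Values are FPKM, fragments per unit of exon length and sequencing depth, which is a level per length. Levels of Cebpa, Cebpb and Cebpg are set side by side, though their transcripts have 62.6%, 67.2% and 42.9% G and C. The part of this in their levels was not tested. Levels of Cebpd rest on a deposited length of 2260 nt that is longer than the annotated gene. They may be too low beside the others. Libraries held from 9567769 to 27230965 fragments, and a C/EBP gene was counted with 80 (Cebpd) to 4964 (Cebpa) fragments in a library. Nfia, which shows the construct, lay between 225 and 594 FPKM in the libraries of full-length NFIA and the mutant and below 0.26 in the control libraries after day 0. At day 0 the control libraries had 0.879, 7.35 and 0.175 FPKM of Nfia, and leaving out the second of them moved no call on a C/EBP gene. The constructs were not at equal levels, with 225 to 250.2 FPKM of full-length NFIA and 397 to 423 of the mutant at day 0, 457 to 528 and 374 to 480.5 at day 7, and 497 to 594 and 262 to 344 with forskolin, and the part of this in their differences was not tested. The summed FPKM of 8 muscle markers at day 7 was 9717 to 11258 in control cells, 1726 to 2300 with full-length NFIA and 11146 to 11610 with the mutant. That of 6 adipocyte markers was 335 to 371, 13268 to 14750 and 602 to 1992 in the same order. At day 0 the muscle markers already summed to 1342 to 1424, 137 to 145 and 408 to 418 FPKM and the adipocyte markers to 33.9 to 41.3, 391 to 425 and 302 to 321 FPKM. The cells compared thus differed in these markers at both days, except that the muscle markers of control and mutant cells overlapped at day 7. Levels per cell cannot be told apart from the mix of cells. Myeloid, endothelial and hepatocyte markers summed to at most 26.9 FPKM in any library. Differences are given as log2 fold changes in FPKM + 1, a scale that understates changes of low values, with the standard error (SE) and the Benjamini-Hochberg adjusted p of limma. A gene was called at an adjusted p under 0.05.

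At day 0, before adipogenic medium, full-length NFIA-expressing cells had more mRNA of all 4 genes than control cells, and 37.7% of all genes tested were higher by the same rule. With the Δpro#3 mutant 2 of the 4 were higher, Cebpa and Cebpd (32.5% of all genes). In either direction 73.3% of all genes passed with full-length NFIA and 62.2% with the mutant, so a call alone sets no gene apart. The mutant was lower than full-length NFIA for 3 of the 4, Cebpa, Cebpd and Cebpg (31.9% of all genes). Cebpa and Cebpd passed 3-fold with full-length NFIA, as did 5.24% of all genes, and none of the 4 did with the mutant on this scale (2.18%), where Cebpd, which is low in control cells, was past 3-fold by voom on fragments (1.73 on the log2 scale). At day 7 full-length NFIA left 1 gene higher, Cebpa (31.3% of all genes), while the mutant had Cebpd higher (21.3%) and Cebpg lower (27.5%). Against full-length NFIA the mutant had Cebpd higher (34.3% of all genes) and Cebpa and Cebpg lower (29.4%), Cebpa by more than 3-fold (6.30%). After forskolin full-length NFIA had 2 genes above control, Cebpa and Cebpb (25.5%), with Cebpa past 3-fold (8.02%). The mutant then had Cebpb and Cebpd above control (19.5%) and Cebpa and Cebpg below it (27.1%). Against full-length NFIA it had Cebpd higher (42.0%) and Cebpa and Cebpg lower (24.2%), with Cebpa past 3-fold (6.20%).

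**Figure D1:**
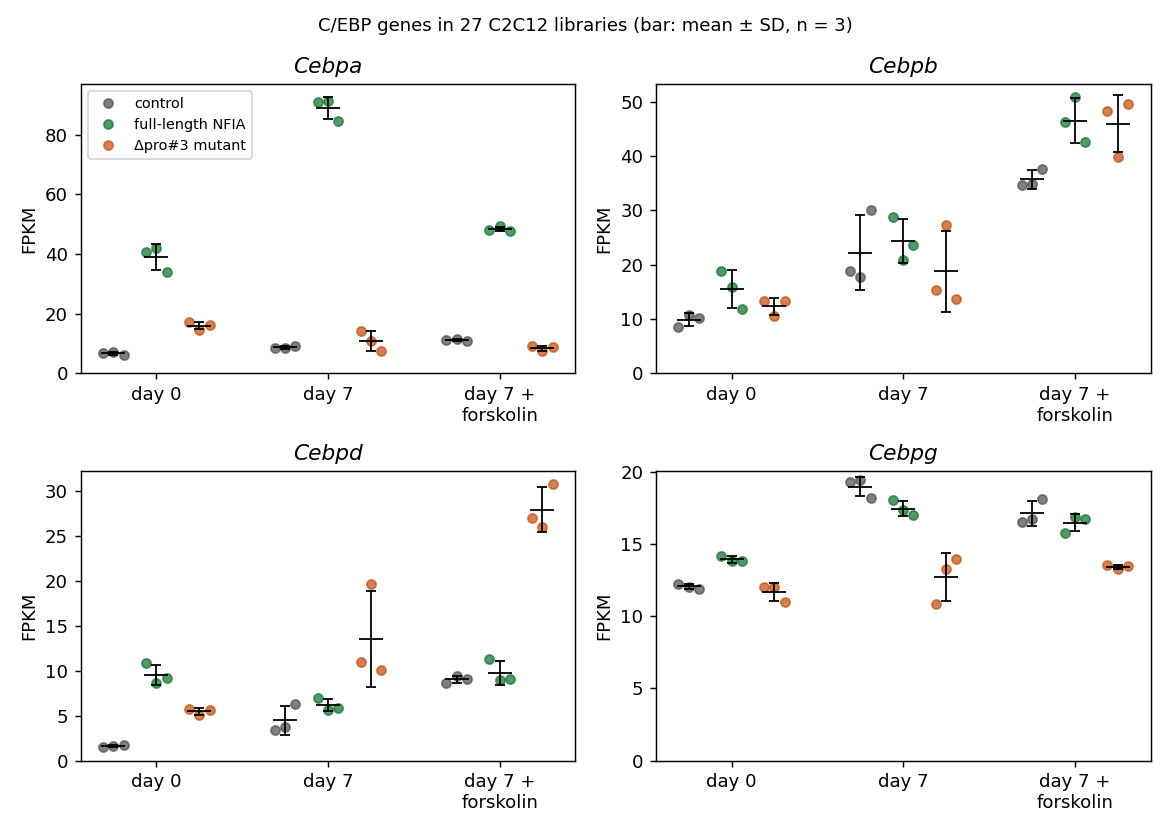
FPKM (linear axes) of the 4 C/EBP genes in C2C12 cells with the control, the Δpro#3 mutant or full-length NFIA, at day 0, day 7 and day 7 with forskolin. Each point is a library, and bars show mean ± SD (n = 3). Cebpa reached 89.0 FPKM with full-length NFIA at day 7, and Cebpd was highest, 27.9 FPKM, with the mutant after forskolin.

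Cebpb, which encodes C/EBPβ, an early and cyclic AMP-responsive member, had 8.53, 10.8 and 10.2 FPKM in the 3 control libraries at day 0. Full-length NFIA gave 18.8, 15.9 and 11.9 FPKM, and the mutant 13.2, 10.5 and 13.2 FPKM. Every library with full-length NFIA lay above every control library, while the mutant's overlapped both. The log2 fold change was 0.59 (SE 0.15, limma adjusted p = 0.00367) with full-length NFIA and 0.29 (95% CI -0.03 to 0.62, limma adjusted p = 0.103) with the mutant. The mutant's difference did not hold as a call either way, since without full-length NFIA replicate 3 the same value had a limma adjusted p of 0.0307, and with GC correction it was 0.32 (limma adjusted p = 0.0188) and by voom 0.31 (limma adjusted p = 0.0246). The mutant against full-length NFIA gave -0.30 (limma adjusted p = 0.0944), and -0.47 without that library (limma adjusted p = 0.00548). Leaving out another single library brought it to -0.16 (limma adjusted p up to 0.338).

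At day 7 Cebpb was spread widely within groups. Control libraries had 18.8, 17.7 and 30.2 FPKM, full-length NFIA libraries 28.7, 20.8 and 23.6, and mutant libraries 15.4, 27.3 and 13.6. All 3 groups overlapped. The difference from control was 0.16 (95% CI -0.41 to 0.73, limma adjusted p = 0.600) with full-length NFIA and -0.26 (95% CI -0.83 to 0.32, limma adjusted p = 0.437) with the mutant. The latter ran from -0.55 without mutant replicate 2 to -0.023 without control replicate 3 and was not called in either case. Control replicate 3 and mutant replicate 2 were the high ones, and both were also the high libraries of their group for Cebpd. The plot of the day 7 replicates shows these 2 libraries apart. The median log2 level of the 12 cyclic AMP response genes in them, 2.52 and 2.05, was close to the 2.48 and 2.02 to 2.06 of their group. Without both libraries Cebpb was 0.39 higher with full-length NFIA than in control cells (limma adjusted p = 0.0235). No removal of a single library gave that call (limma adjusted p of 0.194 or more). The mutant against full-length NFIA gave -0.41 on all libraries (limma adjusted p = 0.185). It gave -0.70 without both libraries, and also without mutant replicate 2 alone (limma adjusted p = 0.0165 for the latter). Leaving out another single library brought it to -0.23 (limma adjusted p up to 0.494). Control replicate 3 and mutant replicate 2 were picked after their values were seen.

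**Figure D2:**
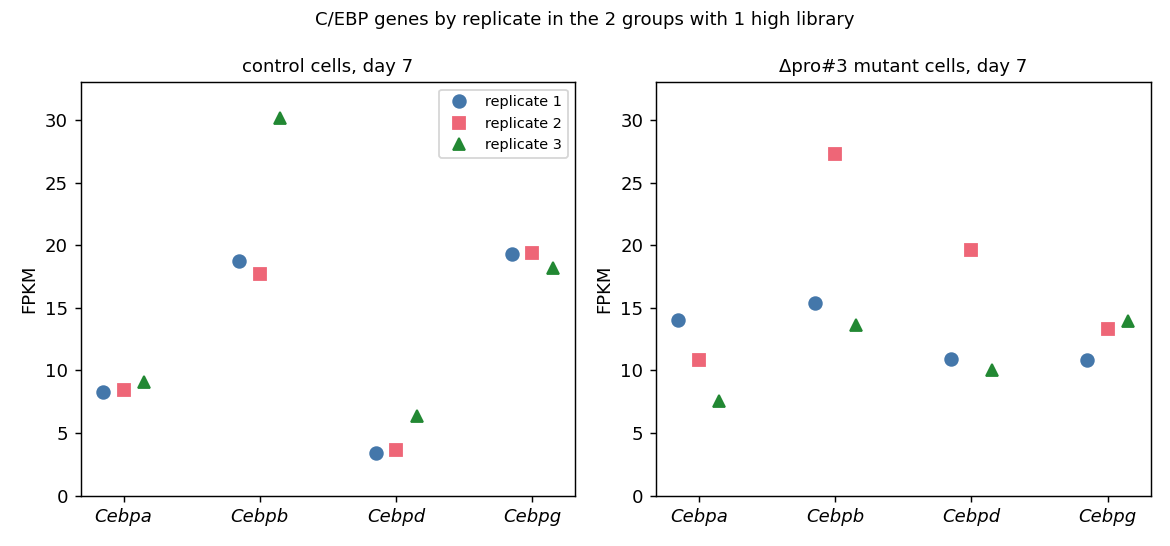
FPKM of the 4 C/EBP genes in each replicate of control and Δpro#3 mutant cells at day 7 (linear axes, 1 symbol per replicate). Control replicate 3 and mutant replicate 2 were high for Cebpb (30.2 and 27.3 FPKM) and Cebpd (6.34 and 19.6 FPKM), while Cebpa and Cebpg did not follow.

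Cebpd, which encodes C/EBPδ, the partner of C/EBPβ early in adipogenesis and an acute phase factor, was the lowest of the 4 in control cells at day 0, with 1.49, 1.67 and 1.75 FPKM. Full-length NFIA gave 10.8, 8.61 and 9.14 FPKM, and the mutant 5.78, 5.07 and 5.60 FPKM. The 3 groups did not overlap. The log2 fold changes against control were 1.99 (SE 0.08, limma adjusted p = 1.60e-09) and 1.30 (SE 0.08, limma adjusted p = 1.16e-07), and the mutant lay 0.69 below full-length NFIA (limma adjusted p = 1.55e-05).

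By day 7 the order of the constructs had turned for Cebpd. Control libraries had 3.43, 3.68 and 6.34 FPKM, full-length NFIA libraries 6.98, 5.65 and 5.89, and mutant libraries 10.9, 19.6 and 10.0. The lowest mutant library lay above every other library of that day, and the control and full-length NFIA groups overlapped through control replicate 3. The mutant exceeded control cells by 1.39 (SE 0.24, limma adjusted p = 0.00113) and full-length NFIA-expressing cells by 0.96 (SE 0.24, limma adjusted p = 0.00575). Over all alternatives computed the first ranged from 1.10 to 1.67 and the second from 0.68 to 1.14, all called. Full-length NFIA against control gave 0.42 (95% CI -0.12 to 0.97, limma adjusted p = 0.144), which became 0.65 (limma adjusted p = 0.0325) without control replicate 3.

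The change over time was therefore tested directly. From day 0 to day 7 Cebpd rose by 1.02 in control cells (limma adjusted p = 0.000170) and by 1.11 in mutant cells (limma adjusted p = 7.45e-05), whereas it fell by 0.55 in full-length NFIA-expressing cells (limma adjusted p = 0.0179). Of all genes, 32.8% rose in mutant cells and 46.5% fell with full-length NFIA. The fall was no longer called without full-length NFIA day 0 replicate 1 (-0.47, limma adjusted p = 0.0698) or day 7 replicate 2 (-0.50, limma adjusted p = 0.0563), nor after median-ratio scaling (-0.43). The change with full-length NFIA differed from that in control cells by -1.57 (SE 0.28, limma adjusted p = 9.66e-05), as 40.1% of all genes were lower in this test. Mutant cells differed from full-length NFIA-expressing cells by 1.66 (SE 0.28, limma adjusted p = 7.24e-05; 33.9% of all genes were higher), and from control cells by 0.09 (95% CI -0.51 to 0.68, limma adjusted p = 0.822).

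Cebpa, which encodes C/EBPα, the factor that sustains the adipocyte state together with PPARγ, had the largest log2 fold change in FPKM + 1 with full-length NFIA of the 4 genes at every time, though at day 0 voom on fragments gave Cebpa 2.56 and Cebpd 2.54. Control libraries at day 0 had 6.64, 7.28 and 6.18 FPKM, full-length NFIA libraries 40.8, 42.1 and 34.0, and mutant libraries 17.2, 14.7 and 16.0. None of these groups overlapped. The log2 fold change was 2.37 (SE 0.08, 5.18-fold, limma adjusted p = 7.93e-10) with full-length NFIA, above 99.0% of all genes tested, and 1.14 (SE 0.08, limma adjusted p = 6.80e-07) with the mutant, which lay 1.23 below full-length NFIA (limma adjusted p = 3.16e-07). Pparg, the gene of PPARγ, was 2.22 and 1.60 higher at the same time.

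At day 7 Cebpa reached 91.1, 91.3 and 84.7 FPKM with full-length NFIA, against 8.31, 8.46 and 9.11 FPKM in control cells. Mutant libraries had 14.0, 10.8 and 7.59 FPKM and overlapped the control libraries. Full-length NFIA exceeded control by 3.23 (SE 0.16, limma adjusted p = 3.38e-08), past 3-fold as were 8.17% of all genes, and the mutant lay 2.97 below full-length NFIA (limma adjusted p = 8.70e-08). The mutant against control gave 0.26 (95% CI -0.09 to 0.61, limma adjusted p = 0.201), and 0.47 (limma adjusted p = 0.00408) without mutant replicate 3, the lowest library. Leaving out another single library brought it to 0.07 (limma adjusted p up to 0.673). Within the mutant group Cebpa was highest in replicate 1, which also had the most Fabp4 (1415 FPKM against 294 and 354), the gene of a fatty acid carrier of adipocytes. The Cebpa transcript has 62.6% G and C, above 99.1% of genes, and the 10% of genes richest in G and C deviated by 0.08, 0.06 and -0.15 (median log2 against the other replicates) in mutant replicates 1 to 3. The part of either in the spread of Cebpa was not tested.

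The time course of Cebpa differed with each construct. It rose from day 0 to day 7 by 1.18 with full-length NFIA (SE 0.14, limma adjusted p = 5.96e-07) and fell by 0.56 with the mutant (SE 0.14, limma adjusted p = 0.00143), where 46.7% of all genes fell. The fall with the mutant was -0.35 with GC correction or without mutant day 7 replicate 3, and -0.75 without day 7 replicate 1, and was called each time. In control cells it rose by 0.32 (limma adjusted p = 0.0411), a call that was lost without any one of control day 0 replicates 1 or 3 or day 7 replicates 1, 2 or 3 (0.27 to 0.35 on the log2 scale in those 5, limma adjusted p = 0.0581 to 0.124), while GC correction raised it to 0.66 (limma adjusted p = 3.60e-05). The mutant's change differed from that with full-length NFIA by -1.73 (SE 0.19, limma adjusted p = 8.72e-07; 29.5% of all genes were lower, and 5.40% passed 3-fold in either direction, as Cebpa and Cebpd did) and from that in control cells by -0.88 (SE 0.19, limma adjusted p = 0.00155; 25.9% of all genes were lower). Full-length NFIA differed from control by 0.85 (SE 0.19, limma adjusted p = 0.000932; 31.1% of all genes were higher).

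Cebpg, which encodes C/EBPγ, the dimer partner without an activation domain, varied least, with a highest group mean 1.62 times the lowest. At day 0 it had 12.3, 12.04 and 11.9 FPKM in control cells, 14.2, 13.8 and 13.8 with full-length NFIA and 12.04, 11.997 and 10.99 with the mutant. Full-length NFIA was above the other groups in every library, but by 0.19 (SE 0.04, limma adjusted p = 0.000970). The mutant against control gave -0.04 (95% CI -0.13 to 0.04, limma adjusted p = 0.335).

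At day 7 Cebpg had 19.3, 19.4 and 18.2 FPKM in control cells, 18.03, 17.3 and 17.0 with full-length NFIA and 10.8, 13.3 and 14.0 with the mutant. Every mutant library lay below every library of the other groups. The mutant was 0.55 below control (SE 0.08, limma adjusted p = 0.000443) and 0.44 below full-length NFIA (SE 0.08, limma adjusted p = 0.00102). Full-length NFIA against control gave -0.11 (95% CI -0.30 to 0.07, limma adjusted p = 0.243), which turned to 0.09 after correction for GC content. From day 0 Cebpg rose by 0.61 in control cells (SE 0.07, limma adjusted p = 2.35e-07) and by 0.30 with full-length NFIA (limma adjusted p = 0.000487), while the mutant gave 0.11 (95% CI -0.04 to 0.25, limma adjusted p = 0.156). The mutant value became 0.21 without mutant day 7 replicate 1 (limma adjusted p = 0.000724), the lowest library, 0.21 with median-ratio scaling (limma adjusted p = 0.00675) and 0.26 with GC correction (limma adjusted p = 0.000272). The mutant value fell to 0.04 on leaving out another single library (limma adjusted p up to 0.613). GC correction also raised the value with full-length NFIA to 0.60. The mutant's change differed from that in control cells by -0.51 (SE 0.09, limma adjusted p = 0.000362) and that of full-length NFIA by -0.31 (SE 0.09, limma adjusted p = 0.00810), the latter -0.09 and not called after GC correction. Cebpb rose from day 0 to day 7 by 1.06 in control cells (SE 0.23, limma adjusted p = 0.000470) and by 0.63 with full-length NFIA (limma adjusted p = 0.0200), so that all 4 genes were higher at day 7 in control cells, as were 36.0% of all genes. The Cebpb rise with full-length NFIA was not called without day 0 replicate 3 (0.46, limma adjusted p = 0.104) or day 7 replicate 1 (0.51, limma adjusted p = 0.0831). Together 3 of the 4 rose with full-length NFIA, as did 33.2% of all genes. With the mutant Cebpb gave 0.51 (95% CI 0.03 to 1.00, limma adjusted p = 0.0508), and the removal of mutant day 7 replicate 1 or 3, of control day 7 replicate 2 or 3, or of full-length NFIA day 0 replicate 1 or 3 brought it to 0.51 to 0.70 with a limma adjusted p of 0.0158 to 0.0497. Another single removal brought it down to 0.22 (limma adjusted p up to 0.332). With GC correction it was 0.72 (limma adjusted p = 0.00112).

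**Figure D3:**
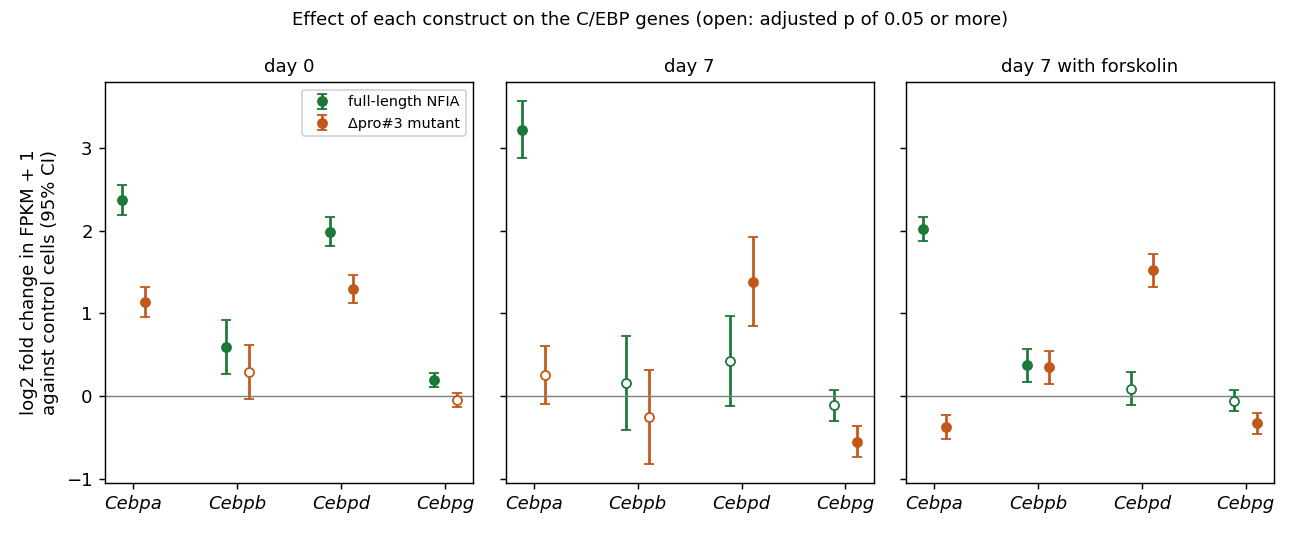
Log2 fold change in FPKM + 1 against control cells of the 4 C/EBP genes with the Δpro#3 mutant or full-length NFIA at day 0, at day 7 and at day 7 with forskolin. Points are limma estimates with unadjusted 95% confidence intervals from 3 libraries a group, filled where the adjusted p is under 0.05. Cebpa was highest with full-length NFIA throughout (2.37, 3.23 and 2.02), while Cebpd was higher with the mutant from day 7 on (1.39 and 1.52).

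The make-up of the C/EBP pool followed these levels, with Cebpd entered at the deposited length and no correction for G and C content. Cebpa was 16.1% ± 1.56 (SD, n = 3) of the summed FPKM of the 4 genes in control cells at day 7, 65.0% ± 2.38 with full-length NFIA and 19.8% ± 6.62 with the mutant. The lowest full-length NFIA library, 62.9%, lay above the highest of the others, 27.4%, and the two-sided exact permutation p of 0.1 is the smallest that 3 against 3 libraries allow. Mutant against control gave an exact permutation p of 0.5. Cebpg was the most abundant of the 4 in control cells at day 0 and Cebpa with either construct. The summed FPKM of the 4 was 54.3 ± 8.27 (SD, n = 3) in control cells, 137.0 ± 7.02 with full-length NFIA and 55.8 ± 13.5 with the mutant at day 7.

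Forskolin was given to ask how cells responded to cyclic AMP. Cebpb and Cebpd were higher with forskolin in all 3 kinds of cell. By the same rule 7.05% of all genes were higher in control cells, 13.9% with full-length NFIA and 11.9% with the mutant. The change of Cebpa differed between cells, and Cebpg passed no test of the response. Of the 11 cyclic AMP response genes tested, fixed as a list, 9 rose in control cells (median 0.63, against -0.05 over all genes), 11 with full-length NFIA (median 1.54 against -0.15) and 10 with the mutant (median 0.88 against -0.06). Nr4a3, an immediate-early nuclear receptor, rose by 0.95, 4.51 and 0.98 in that order. Sik1, a kinase that CREB induces, rose by 1.07, 1.96 and 1.44.

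Cebpb had 34.7, 34.9 and 37.7 FPKM in control cells with forskolin, 46.3, 50.9 and 42.6 with full-length NFIA and 48.3, 40.0 and 49.7 with the mutant. Every forskolin library lay above every library of its group without forskolin, and the libraries of both constructs lay above those of the control. The response was 0.70 in control cells (SE 0.21, limma adjusted p = 0.0252), 0.91 with full-length NFIA (SE 0.21, limma adjusted p = 0.00150) and 1.31 with the mutant (SE 0.21, limma adjusted p = 0.000152). The control response was not called without control day 7 replicates 1 or 2 or any forskolin-treated control replicate (0.56 to 0.72 in these 5, limma adjusted p = 0.0563 to 0.115). The mutant response exceeded that of control cells by 0.61 (95% CI -0.02 to 1.23, limma adjusted p = 0.282), and by 0.90 (limma adjusted p = 0.0400) without mutant day 7 replicate 2. Leaving out another single library brought this to 0.37 (limma adjusted p up to 0.505). The mutant response exceeded that with full-length NFIA by 0.39 (95% CI -0.24 to 1.02, limma adjusted p = 0.382). This ran from 0.20 without mutant day 7 replicate 3 to 0.68 without mutant day 7 replicate 2 (limma adjusted p = 0.0556), and was called (limma adjusted p = 0.00887) without both the latter and control day 7 replicate 3. After forskolin Cebpb was 0.37 above control with full-length NFIA (SE 0.09, limma adjusted p = 0.00313) and 0.35 with the mutant (SE 0.09, limma adjusted p = 0.00830). The median of all genes lay at -0.17 in the first of these, so relative to it Cebpb was further up.

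Cebpd reached 8.64, 9.41 and 9.05 FPKM in control cells with forskolin, 11.2, 8.90 and 9.02 with full-length NFIA and 27.01, 25.9 and 30.7 with the mutant. The mutant libraries were far above the others, which overlapped. The response was 0.91 in control cells (SE 0.20, limma adjusted p = 0.00365), 0.58 with full-length NFIA (SE 0.20, limma adjusted p = 0.0220) and 1.05 with the mutant (SE 0.20, limma adjusted p = 0.000707). The response with full-length NFIA was 0.48 to 0.55 and not called (limma adjusted p = 0.0594 to 0.0852) without its day 7 replicates 2 or 3 or its forskolin replicate 1. None of the 3 differences in response passed. The largest was 0.47 between the mutant and full-length NFIA (95% CI -0.13 to 1.07, limma adjusted p = 0.263). It was 0.75 (limma adjusted p = 0.0267) without mutant day 7 replicate 2. Leaving out another single library brought it to 0.30 (limma adjusted p up to 0.506). After forskolin the mutant exceeded control cells by 1.52 (SE 0.09, limma adjusted p = 5.23e-07) and full-length NFIA-expressing cells by 1.43 (SE 0.09, limma adjusted p = 1.76e-07). Full-length NFIA against control gave 0.09 (95% CI -0.11 to 0.29, limma adjusted p = 0.396). It was -0.01 without forskolin-treated full-length NFIA replicate 1 and 0.25 (limma adjusted p = 0.0338) after median-ratio scaling.

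Cebpa had 11.3, 11.5 and 10.7 FPKM in control cells with forskolin, 48.0, 49.2 and 47.8 with full-length NFIA and 8.99, 7.51 and 8.63 with the mutant. The level with full-length NFIA was well below the 84.7 to 91.3 FPKM without forskolin, whereas every control library was above its untreated group. The response was -0.87 with full-length NFIA (SE 0.13, limma adjusted p = 3.16e-05), where 41.5% of all genes were lower, and the median of all genes moved by -0.15. With GC correction it was -0.55 and still called. It was 0.34 in control cells (95% CI 0.06 to 0.61, limma adjusted p = 0.0778) and -0.30 with the mutant (95% CI -0.57 to -0.02, limma adjusted p = 0.0831). The control value was called without mutant day 7 replicate 1 (limma adjusted p = 0.0127) or 3 (limma adjusted p = 0.00586). It was also called with GC correction (0.37, limma adjusted p = 0.0151). The mutant value was -0.51 (limma adjusted p = 0.000398) without mutant day 7 replicate 3. It was -0.11 on leaving out another single library (limma adjusted p up to 0.469). The response with full-length NFIA differed from that in control cells by -1.20 (SE 0.18, limma adjusted p = 0.000123; 21.5% of all genes were lower in this test). The mutant against control differed by -0.63 (limma adjusted p = 0.0558), which was called without mutant day 7 replicate 3 (-0.84, limma adjusted p = 0.000638) or forskolin replicate 1 (-0.68, limma adjusted p = 0.0466) and with GC correction (-0.64, limma adjusted p = 0.0133), in a test that 4.97% of all genes passed. The mutant against full-length NFIA differed by 0.57 (SE 0.18, limma adjusted p = 0.0345), where 15.8% of all genes were higher. With correction for GC content it was 0.28 and not called (limma adjusted p = 0.185), and it was 0.36 (limma adjusted p = 0.0432) without mutant day 7 replicate 3. The call was also lost (0.52 to 0.59 on the log2 scale) without any one of full-length NFIA day 7 replicates 1 and 2, its forskolin replicates 1, 2 and 3, mutant day 7 replicate 2 or mutant forskolin replicates 1 and 3. After forskolin Cebpa remained 2.02 above control with full-length NFIA (SE 0.07, limma adjusted p = 5.78e-10) and was 0.38 below control with the mutant (SE 0.07, limma adjusted p = 0.000877).

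Cebpg had 16.5, 16.7 and 18.1 FPKM in control cells with forskolin, 15.8, 16.9 and 16.7 with full-length NFIA and 13.5, 13.2 and 13.5 with the mutant. The mutant libraries were again the lowest and the other groups overlapped. The response was -0.14 in control cells (95% CI -0.29 to 0.01, limma adjusted p = 0.188), -0.08 with full-length NFIA (95% CI -0.23 to 0.07, limma adjusted p = 0.353) and 0.08 with the mutant (95% CI -0.07 to 0.23, limma adjusted p = 0.393). With the mutant it stayed 0.33 below control (SE 0.06, limma adjusted p = 0.000700).

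**Figure D4:**
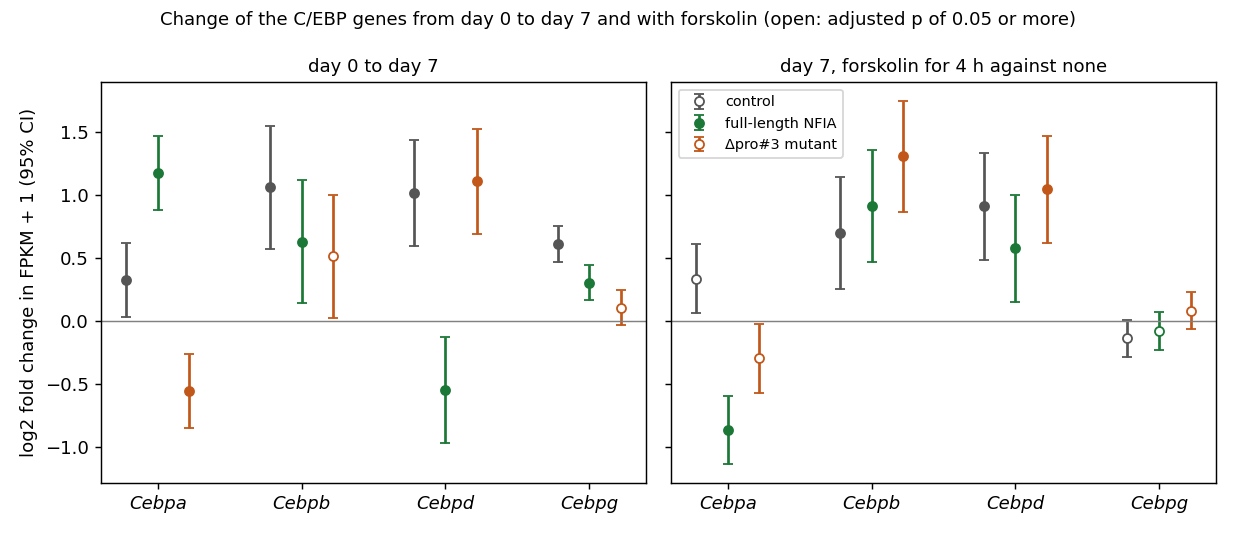
Log2 fold change in FPKM + 1 of the 4 C/EBP genes from day 0 to day 7 (left) and with forskolin at day 7 (right) in cells with the control, the Δpro#3 mutant or full-length NFIA. Points are limma estimates with unadjusted 95% confidence intervals, filled where the adjusted p is under 0.05. Cebpb and Cebpd rose with forskolin in each kind of cell (0.58 to 1.31), and Cebpa fell with full-length NFIA (-0.87).

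Ranked by group mean, Cebpa ran from 89.0 ± 3.75 FPKM (SD, n = 3) with full-length NFIA at day 7 to 6.70 ± 0.55 in control cells at day 0, a ratio of 13.3. Its 4 highest groups, the 3 with full-length NFIA and then the mutant at day 0, did not overlap with their neighbours in this order, while the 4 groups from control cells with forskolin to mutant cells with forskolin overlapped in turn. Cebpb ran from 46.6 ± 4.18 FPKM to 9.85 ± 1.19, a ratio of 4.73, with the 3 forskolin groups on top and the day 0 groups at the bottom. Cebpd ran from 27.9 ± 2.52 FPKM with the mutant and forskolin to 1.64 ± 0.13 in control cells at day 0, a ratio of 17.0, and its second highest group was the mutant at day 7 with 13.5 ± 5.31. Cebpg ran from 19.0 ± 0.66 FPKM in control cells at day 7 to 11.7 ± 0.59 in mutant cells at day 0. Over the 9 group means, which come from a single cell line, Pearson's r between members was 0.69 for Cebpb and Cebpd, 0.56 for Cebpb and Cebpg, 0.35 for Cebpa and Cebpg, 0.19 for Cebpa and Cebpb, 0.07 for Cebpa and Cebpd and 0.0011 for Cebpd and Cebpg, as a description.

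Among 5730 genes with a group mean of at least 5 FPKM and a 2-fold range, the 5 most like Cebpa over the 9 group means were Dram1 (r = 0.99), Map3k5, Il11ra1, Entpd5 and Mrps6 (r = 0.97). All 5 were highest with full-length NFIA at day 7. Those most like Cebpb were Slc10a6 (r = 0.99), the clock genes Per2 and Per1, Gprc5b and the lipid droplet gene Hilpda (r = 0.96). For Cebpd they were Ifi211 (r = 0.93), H2-K1, Ifi204, Plcb1 and H2-D1 (r = 0.86), 4 of them interferon-inducible or major histocompatibility genes. For Cebpg they were Clec2d (r = 0.94), Akr1b7, Car6, Tlcd2 and Thyn1 (r = 0.92). With 9 points and 5730 genes such values arise easily, and they are given only as a description.

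Further genes of the C/EBP network were read from fixed lists. Of the other family genes and partners, Cebpe was listed at 0 in nearly all libraries. Cebpz, named for CCAAT binding but not a leucine-zipper factor, was 0.86 lower with full-length NFIA and 0.63 lower with the mutant at day 7. Ddit3, the gene of CHOP, which dimerizes with C/EBPs and blocks their usual binding, was 0.43 and 0.65 higher at day 0, and at day 7 0.57 higher with full-length NFIA but 0.40 lower with the mutant. Of the adipogenic partners tested at day 0, 7 of 7 were higher with either construct, with medians of 0.60 and 0.51 against 0.01 over all genes, of which 37.7% and 32.5% were higher. Zfp423, a preadipocyte determinant, was 1.94 and 0.66 higher. At day 7, 8 of 8 were higher with full-length NFIA (median 1.12; 31.3% of all genes were higher) and 3 of 8 with the mutant (median 0.06; 21.3% of all genes), where Klf4 was 1.24, Pparg 0.39 and Zfp423 0.27 higher and Klf15 was 0.57 lower.

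Adipocyte genes that carry known C/EBP sites rose far with full-length NFIA at day 7, where 11 of 13 were higher and 1 lower, with a median of 4.86 against -0.08 over all genes, of which 31.3% were higher and 41.1% lower. Plin1, which coats lipid droplets, was 6.50 higher, Cfd (adipsin) 6.48, Fabp4 6.23 and Adipoq (adiponectin) 5.91. Slc2a4, the insulin-responsive glucose transporter that muscle also uses, was 1.71 lower. With the mutant 7 of 13 were higher and 2 lower, with a median of 0.81 against -0.04 (21.3% of all genes were higher and 27.5% lower), and Plin1 was 2.08, Fabp4 1.80 and Cidea -0.15 (not called). Without mutant replicate 1 the list median was 0.43, Fabp4 was 1.09 and Plin1 1.64. After forskolin 2 of 13 were higher and 2 lower with the mutant (median 0.31 against -0.04; 19.5% and 27.1% of all genes), and 11 higher and 1 lower with full-length NFIA (median 4.54 against -0.17; 25.5% and 47.0% of all genes). Against full-length NFIA 12 of the 13 were lower in the mutant, with a median of -4.02, while 29.4% of all genes were lower.

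Acute phase genes with C/EBP sites divided by gene. With full-length NFIA at day 7, 5 of 9 were higher and 3 lower (median 0.70 against -0.08 over all genes, of which 31.3% were higher and 41.1% lower), C3 of complement by 7.30, Lcn2 (lipocalin) by 6.27, Orm1 by 3.96 and Hp (haptoglobin) by 2.14, while the chemokine gene Ccl2 was 2.80 lower. With the mutant 6 of 9 were higher and 2 lower (median 0.60 against -0.04), when 21.3% and 27.5% of all genes were, and Hp, at 3.74, exceeded full-length NFIA by 1.60. C3 was 5.24 and Lcn2 0.63 higher with the mutant. At day 0, 5 of 7 were higher and 2 lower with full-length NFIA (median 1.09 against 0.01; 37.7% and 35.6% of all genes), and 6 higher and 1 lower with the mutant (median 0.84 against 0.01; 32.5% and 29.7%). Ccl2 was lower with either construct, with log2 fold changes of -1.23 and -1.69, as was Cp (ceruloplasmin, -1.51) with full-length NFIA. Ptx3 was 3.83 and 1.88 higher and Orm1 3.53 and 1.18 higher with full-length NFIA and the mutant.

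The stress genes that ATF4 and C/EBPγ are known to drive moved apart between the constructs at day 7. With the mutant 9 of 12 were lower than in control cells and 0 higher (median -0.55 against -0.04 over all genes, of which 27.5% were lower and 21.3% higher). With full-length NFIA 5 of 12 were higher and 1 lower (median 0.25 against -0.08), when 31.3% of all genes were higher and 41.1% lower. Trib3, a pseudokinase that ATF4 and CHOP induce, was 1.35 lower with the mutant, Atf3 1.32 lower and Aldh1l2 0.79 lower, while Chac1 was 0.83 higher with full-length NFIA and 0.45 lower with the mutant. Against full-length NFIA 11 of 12 were lower in the mutant (median -0.91; 29.4% of all genes were lower). Atf4 itself was 0.51 below control with the mutant and 0.05 from it (not called) with full-length NFIA. At day 0 the picture was mixed, with 3 of 12 higher and 6 lower with full-length NFIA (37.7% and 35.6% of all genes) and 2 higher and 7 lower with the mutant (32.5% and 29.7%).

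**Figure D5:**
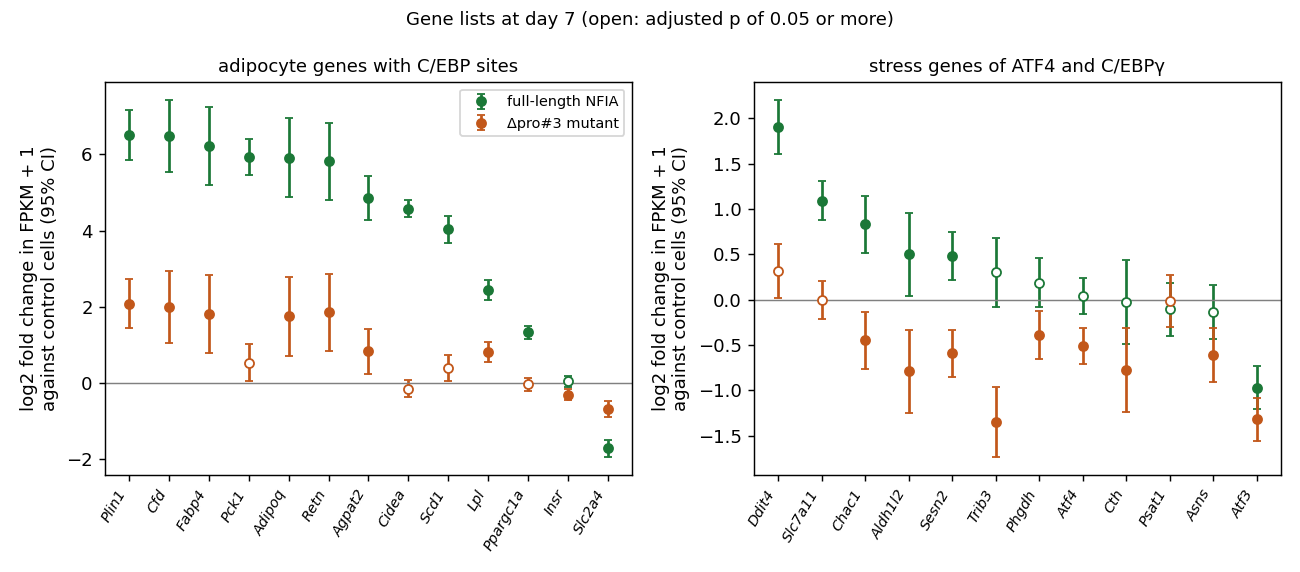
Log2 fold change in FPKM + 1 against control cells at day 7, by gene, for adipocyte genes with C/EBP sites (left) and for stress genes of ATF4 and C/EBPγ (right), with the Δpro#3 mutant or full-length NFIA. Points are limma estimates with unadjusted 95% confidence intervals, filled where the adjusted p is under 0.05. On the left the list median was 4.86 for full-length NFIA and 0.81 for the mutant, and on the right it was 0.25 and -0.55 in that order.

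The last list held 8 genes whose products change C/EBP stability, translation or action. At day 0 with full-length NFIA, 4 were higher and 2 lower (median 0.58 against 0.01 over all genes). With the mutant 3 were higher and 2 lower (median 0.01 against 0.01). Of all genes 37.7% were higher and 35.6% lower with full-length NFIA, and 32.5% and 29.7% with the mutant, so these counts were near the background. Trib2, which marks C/EBPα for degradation, was 1.65 and 0.94 higher with full-length NFIA and the mutant, and the inhibitors of DNA binding Id1 (1.57 and 0.79) and Id2 (1.74 and 1.67) were higher too. Trib1, of the same family as Trib2, was 0.57 and 0.77 lower, and Celf1, an RNA-binding protein gene, 0.35 and 0.22 lower. Calr, whose product binds the mRNA of C/EBPs, was 1.18 higher with full-length NFIA and 0.03 (not called) with the mutant. At day 7, 5 of 8 were lower and 1 higher with full-length NFIA (median -0.37 against -0.08; 41.1% of all genes were lower and 31.3% higher) and 4 of 8 lower and 2 higher with the mutant (median -0.17 against -0.04; 27.5% of all genes were lower and 21.3% higher), where the count of lower genes was 1 without mutant replicate 2 and 2 without control replicate 2 or 3. Fbxw7, part of a ubiquitin ligase that targets C/EBPs, was 0.88 and 0.45 lower. With forskolin Id2 rose by 0.46 in control cells, 0.94 with full-length NFIA and 0.91 with the mutant.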

How the data were processed

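Polyadenylated RNA of C2C12 cells was sequenced in 27 libraries (9 groups of construct, day and forskolin, 3 replicates each). The authors prepared stranded libraries, aligned reads to mm9 with STAR 2.5.3a, kept unique alignments, counted fragments on the matched strand and deposited FPKM per gene with the gene length (in nt), unscaled between samples. The length given for Cebpd, 2260 nt, exceeds the span of the gene in the annotation used here. Its FPKM may therefore be low relative to the other genes. Because a pseudocount is added to FPKM before the log, its fold changes may also be understated, most where its level is low. The size of this was not tested. FPKM times length gave whole fragments (within 0.01) for all values, and their sums are the depths (9567769 to 27230965, median 17707223).

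Groups came from the sample labels. limma 3.58.1 in R 4.3.3 was fitted to log2(FPKM + 1), with a trended variance, over genes with a mean of 0.5 FPKM or more: the 9 libraries of a time point for construct comparisons, and 18 for forskolin and for day 0 to day 7. P-values are two-sided and Benjamini-Hochberg adjusted over all genes. Figures and summaries used Python 3.11.15. Confidence intervals are at 95% and unadjusted. Scripts were tested on simulated data. Same-numbered replicates did not deviate together (mean correlation 0.01 at day 0, -0.03 at day 7 and -0.00195 with forskolin), and no pair of replicates agreed within counting noise (chi-squared per gene 1.55 to 15.0 over 27 pairs). Comparisons against the same control libraries share them.

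The genes, lists and tests were chosen with earlier results of these data known. Named genes are the 4 C/EBP genes, members of the lists, the 5 genes most like each C/EBP gene by Pearson's r over 9 group means (highest at least 5 FPKM, range at least 2-fold) and Nfia. Alternatives were a pseudocount of 0.1, median-ratio scaling, no filter or a minimum of 5 FPKM, no variance trend, a replicate block, voom on fragments, only the groups compared, and leaving out each library. Added after the data were seen were a correction for GC content in 50 bins of genes (Cebpd had no GC value) and the removal of 2 libraries together.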

Additional observations from a re-analysis of the deposited data

Results flagged for a closer look

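Of 24 differences between kinds of cell in a change (4 genes, 6 contrasts), 9 passed the limma test of the difference itself. Over all genes 4.97% to 71.2% passed in these contrasts, so the count does not set the C/EBP genes apart. For forskolin both were of Cebpa, -1.20 for full-length NFIA against control (limma adjusted p = 0.000123) and 0.57 for the mutant against full-length NFIA (limma adjusted p = 0.0345), which was 0.28 and not called with GC correction (limma adjusted p = 0.185). For the change from day 0 to day 7, Cebpa differed by 0.85 for full-length NFIA against control, by -0.88 for the mutant against control and by -1.73 for the mutant against full-length NFIA. Cebpd differed by -1.57 for full-length NFIA against control and by 1.66 for the mutant against full-length NFIA. Cebpg differed by -0.31 for full-length NFIA and by -0.51 for the mutant, each against control, the first of them -0.094 and not called with GC correction. No group here has the 4 libraries that a check for single outlying values needs.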

How the results depend on the processing

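Over 84 gene results and 9 settings other than leaving out libraries, 650 of 687 values kept direction and side of the threshold, 20 became called, 8 were no longer called and 9 changed sign. The replicate block changed no call on a C/EBP gene. Counts of C/EBP genes called moved by over 1.5 times as follows. For full-length NFIA against control at day 7 the count of 1 was 3 without control day 7 replicate 3 and mutant day 7 replicate 2 together. For the forskolin response of control cells the 2 became 1 with no filter. For differences in that response, the count for full-length NFIA against control went from 1 to 2 without both libraries, for the mutant against control from 0 (2 at an unadjusted p under 0.05 in limma) to 1 with a minimum of 5 FPKM, voom or without both libraries, and for the mutant against full-length NFIA from 1 to 0 with a pseudocount of 0.1, median-ratio scaling or no filter and to 2 without both libraries. From day 0 to day 7 in mutant cells it went from 2 to 4 with median-ratio scaling. Removing single libraries gave 1 to 2, 1 to 3, 0 to 1, 0 to 1 and 2 to 4 for full-length NFIA against control at day 7, the control forskolin response, the mutant against control and against full-length NFIA in that response, and the mutant from day 0 to day 7. Of the stability genes, 5 lower with full-length NFIA at day 7 became 3 with a minimum of 5 FPKM, and 4 lower with the mutant became 1 with median-ratio scaling or without both libraries, 2 with the replicate block or only the groups compared, and 1 to 4 without single libraries. The 11 cyclic AMP genes raised with full-length NFIA became 7 at a minimum of 5 FPKM, where fewer were tested.

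Changes of sign were among values near 0. With GC correction, full-length NFIA against control gave -0.00317 (Cebpb) and 0.095 (Cebpg) at day 7 and 0.17 (Cebpg) with forskolin, the last then called higher (limma adjusted p = 0.00842). GC correction also brought calls to the Cebpb differences in change over time of full-length NFIA (-0.65) and the mutant (-0.68) against control, and of Cebpg for the mutant against full-length NFIA (-0.34), and to Cebpb for the mutant against full-length NFIA at day 0 (-0.30), and ended that of the Cebpa difference in forskolin response of the mutant against full-length NFIA (0.28). With median-ratio scaling Cebpg gave 0.11 there and 0.042 for its response with full-length NFIA. Voom gave -0.041 for the Cebpd difference in response of the mutant against control, and for the changes from day 0 to day 7 it gave -0.047 (Cebpd, mutant against control) and 0.051 (Cebpb, mutant against full-length NFIA). A pseudocount of 0.1 gave -0.12 for Cebpd there. Without both libraries the Cebpb difference in response of full-length NFIA against control was -0.018. The cause of these changes was not tested. Removing single libraries, the values with a change of sign ranged, after forskolin, from -0.0098 to 0.14 (Cebpd, full-length NFIA against control) and from -0.083 to 0.075 (Cebpb, mutant against full-length NFIA). For the response they ranged from -0.022 to 0.15 (Cebpg, mutant cells), and for differences in it from -0.018 to 0.35 (Cebpb, full-length NFIA against control) and from -0.093 to 0.42 (Cebpd, mutant against control). For differences in the change over time they ranged from -0.19 to 0.32 (Cebpd, mutant against control) and from -0.40 to 0.073 (Cebpb, mutant against full-length NFIA). Depth limits Cebpd most, with 80 fragments in its lowest library.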

Other observations

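The 2 day 7 libraries in which Cebpb and Cebpd were high, control replicate 3 and mutant replicate 2, also shared other high genes. Of 8577 genes with a mean of at least 5 FPKM, 26 were at least 0.5 (log2 of FPKM + 1) above both other replicates of their group in the control library and 29 in the mutant library. Of these, 8 genes were in both lists, and 1 other gene was as far below in both. The 8 high genes were Cebpb, Cebpd, Scand1, Ier5l, H2afj, Tpgs1, Gm5617 and 2310039H08Rik. Scand1 stood furthest apart, by 1.38 in the control library and 1.74 in the mutant library. Ier5l, a relative of the immediate-early genes, stood apart by 0.79 and 0.66, and H2afj, which encodes an H2A histone, by 0.61 and 0.87. The Cebpb transcript has 67.2% G and C, above 99.9% of genes. Against the other replicates (median log2), the 10% of genes richest in G and C deviated by 0.04 in the control library. They deviated by 0.06 in the mutant library and by 0.08 in mutant replicate 1, which was not high for Cebpb. The comparison of the 2 libraries was made after the values were seen. These libraries share no label but their day, and what they shared was not tested.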
